A study of Mus musculus with 16 samples.

Results

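The genes of meiotic prophase were followed through embryonic mouse gonads as a set of 39 genes that act in meiotic entry, sister chromatid cohesion, the synaptonemal complex and meiotic recombination. A member was every listed gene with a probe set annotated to it alone, and of several probe sets the one with the highest mean was read. This gave 35 of the 39 listed genes, out of 18193 genes with such a probe set on the array. Rad21l, Hfm1, Rnf212 and Spata22 were not named in the annotation used here and were not analysed here.

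Gonads came from female and male embryos of embryonic day 12.5 or 14.5 (written E12.5 and E14.5), either wild type (WT) or with a knock-out (KO) of Wnt4, a gene for a secreted signalling protein with a known part in ovary development. The 8 groups are WT ovary, KO ovary, WT testis and KO testis at each stage, with 2 Affymetrix arrays in each. The labels give neither the knock-out allele nor the strain, and they name the male samples ovary in the title but testis as the source, so these were read as testis. Arrays of a group are described as biological replicates, but not whether an array held an embryo or a pool, and p-values therefore measure only the spread between these arrays.

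In meiosis, germ cells copy their chromosomes, pair and recombine the homologues during a long prophase, and then divide to form cells with a single chromosome set. In the mouse, germ cells of the fetal ovary enter this prophase before birth, when retinoic acid and other signals switch on Stra8, whose product works with MEIOSIN to activate meiotic genes. Germ cells of the fetal testis do not enter at this time: the enzyme CYP26B1 of the somatic cells degrades retinoic acid there. As prophase proceeds, meiotic cohesins and axis proteins organise the chromosomes, SPO11 breaks DNA, DMC1 carries out strand exchange, and the synaptonemal complex joins the homologues along their length.

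Promoters are shown for 5 members with large differences between groups, all of them with a marked motif. Windows of 300 bases, from 250 before to 50 after a transcript start, were taken from RefSeq (GRCm38.p6). The table holds such windows for 29 of the 35 genes, 34 in all. Letters in capitals mark 4 motifs searched on both strands: the E-box CACGTG, the E2F site GCGGGAA, the sequence CNCCTCAG known from STRA8-bound promoters, and AGGTCA, the half-site of retinoic acid receptors. Spo11, Majin, Tex11, Tex15, Meiob and Ythdc2 have no entry in the table. None of the 4 motifs was found in any window of Dmc1, Tex101, Sycp2, Syce1, Syce3, Rec8, Msh4, Mei4, Mnd1, Mlh3, Trip13 or Ccnb3. The 5 windows shown therefore do not stand for the whole set.

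Stra8 promoter, chr6:34920698-34920997, plus strand: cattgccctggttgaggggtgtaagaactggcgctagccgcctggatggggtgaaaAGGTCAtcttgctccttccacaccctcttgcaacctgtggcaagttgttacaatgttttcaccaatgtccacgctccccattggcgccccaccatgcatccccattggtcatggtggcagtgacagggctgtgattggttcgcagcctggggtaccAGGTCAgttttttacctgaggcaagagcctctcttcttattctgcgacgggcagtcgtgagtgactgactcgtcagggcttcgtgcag
Sycp3 promoter, chr10:88459337-88459636, plus strand: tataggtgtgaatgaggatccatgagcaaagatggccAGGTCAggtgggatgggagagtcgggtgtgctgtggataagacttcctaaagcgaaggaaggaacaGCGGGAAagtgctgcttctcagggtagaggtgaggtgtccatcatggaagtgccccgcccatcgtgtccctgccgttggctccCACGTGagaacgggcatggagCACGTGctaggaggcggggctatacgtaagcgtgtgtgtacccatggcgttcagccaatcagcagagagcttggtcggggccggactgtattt
Tex12 promoter, chr9:50561219-50561518, minus strand: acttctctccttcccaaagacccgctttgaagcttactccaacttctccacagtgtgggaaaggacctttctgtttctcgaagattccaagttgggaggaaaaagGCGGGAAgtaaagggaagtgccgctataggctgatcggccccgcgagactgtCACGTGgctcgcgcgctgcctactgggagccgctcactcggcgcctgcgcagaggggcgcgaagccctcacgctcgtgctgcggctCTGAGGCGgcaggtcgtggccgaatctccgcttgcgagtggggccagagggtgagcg
Smc1b promoter, chr15:85131908-85132207, minus strand: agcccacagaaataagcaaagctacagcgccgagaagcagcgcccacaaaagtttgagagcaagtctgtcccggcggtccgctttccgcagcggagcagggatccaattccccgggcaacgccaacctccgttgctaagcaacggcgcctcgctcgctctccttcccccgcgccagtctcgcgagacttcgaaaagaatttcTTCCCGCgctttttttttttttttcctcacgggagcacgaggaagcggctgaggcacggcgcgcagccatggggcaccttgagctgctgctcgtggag
Spdya promoter, chr17:71551811-71552110, plus strand: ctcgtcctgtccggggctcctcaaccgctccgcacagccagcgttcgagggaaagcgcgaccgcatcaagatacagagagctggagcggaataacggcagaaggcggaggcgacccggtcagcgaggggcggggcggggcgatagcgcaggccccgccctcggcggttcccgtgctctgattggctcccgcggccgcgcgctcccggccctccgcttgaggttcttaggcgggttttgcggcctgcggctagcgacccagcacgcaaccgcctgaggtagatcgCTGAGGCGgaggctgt

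An E-box was found in 7 of the 29 genes (24.1%) against 8.09% of the 27025 genes in the table. The E2F sequence was found in 9 (31%) against 5.29%, and CNCCTCAG in 8 (27.6%) against 9.12%. AGGTCA was found in 5 (17.2%) against 18.1%. With the window richest in CpG dinucleotides taken for each gene, the median count was 18 among the members and 8 among all genes. The E-box and E2F letters contain CpG, so the motif shares are descriptions of base composition as well as of motifs. Stra8 itself had AGGTCA at 194 and 38 bases before its start, and Sycp3 and Hormad1 each had 2 copies of the E-box. A match of letters is not a binding site, and binding was not measured here.

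Wnt4, the targeted gene, read 1138 and 1151 in WT and 351 and 302 in KO ovaries at E14.5 (brighter of 2 probe sets), and 844 and 1822 in WT and 839 and 520.2 in KO ovaries at E12.5. The array labelled KO ovary E12.5 replicate 1 was thus at the level of a WT array. In the same array, 8 markers of pre-granulosa cells, the ovarian supporting cells, summed to 836. The sum was 678 in KO replicate 2 and 1970 and 2669 in WT. For 5 fetal Leydig markers it was 1090 and 591 in KO and 152 and 151 in WT. On both sums the array lay with the other KO array. For 8 Sertoli markers the KO arrays, at 301 and 1477, lay on either side of WT. Which part of the transcript the allele removes is not given, so the Wnt4 readings alone do not settle this array's label. Without this array, 23 genes passed with stage in KO ovary, 2 in the KO test of stage by sex, and 0 in KO against WT ovary at E12.5, in KO ovary against testis at E12.5 and in genotype by stage. In testis Wnt4 read 502 and 473 in WT and 413 and 231 in KO at E12.5, and 753 and 512 in WT and 277 and 371 in KO at E14.5.

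The deposited values are intensities, with array means between 272 and 288. Some arrays carried RNA of the other sex, read from Xist in testis and from Y-linked genes in ovary. The share was 19.9% in WT ovary E14.5 replicate 2, 22.7% in WT testis E14.5 replicate 2 and 16.4% in KO testis E14.5 replicate 2, and under 1% in the other E14.5 arrays. At E12.5 it was 18% and 6.74% in the WT ovary arrays and 17.8% in KO ovary replicate 2. The 3'/5' ratio of control probe sets, which is high when labelled RNA is short, was 2.27 in KO ovary E12.5 replicate 1, 1.76 in WT ovary E12.5 replicate 2 and 1.76 in KO testis E12.5 replicate 1, and at most 1.36 in the others. Replicates of WT testis at E12.5 lay much closer together than those of any other group. The SD of the log2 difference between the 2 arrays was 0.142 in this pair and 0.335 to 0.593 in the others. Because the fit uses a common spread per gene, the closeness of this pair also enters comparisons without WT testis. They may share a source, which was not tested, and were counted as 2 arrays. Averaged into 1, they left 6 genes passing with stage in WT testis, 0 and 4 in stage by sex in WT and KO, and 0 in the E12.5 comparisons with WT ovary or KO testis.

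The largest contrast was between stages in the ovary, which asked whether the ovarian germ cells had switched on the programme. In WT ovary 28 of the 35 genes were higher at E14.5 than at E12.5 and 0 were lower, against 2.47% of the 12332 genes tested that were higher (limma, Benjamini-Hochberg adjusted p under 0.05). In KO ovary 29 were higher and 0 lower, against 5.34% of all genes that were higher. The median log2 difference of the 35 genes was 2.73 in WT and 2.77 in KO, while that of all genes was -0.04 and -0.10. All log2 values are differences of log2(intensity + 4), a scale that understates the change of dim genes. The comparisons share no array, and 26 genes passed in both. They do share the spread estimate of each gene, which was taken over all groups, so the 2 sets of calls are not independent. RNA came from whole gonads, so more germ cells and more RNA per germ cell cannot be told apart.

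Of the 35 genes, 14 lay above the median of their array in all 16 arrays, 13 did so only at E14.5, and 6 of those only in E14.5 ovaries. The filter asked for 2 arrays above the median. At E12.5 these 13 had none and Stra8 and Rec8 had 1, so 15 members passed it only with arrays of the stage where they are high. All 35 passed, and with no filter the counts were 27 in WT and 29 in KO. On leaving out any single array, 20 of the 28 calls in WT and 23 of the 29 in KO were kept. The counts then lay between 21 and 28 in WT and between 23 and 30 in KO, the lowest KO count being the one without the array labelled KO ovary E12.5 replicate 1.

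**Figure D1:**
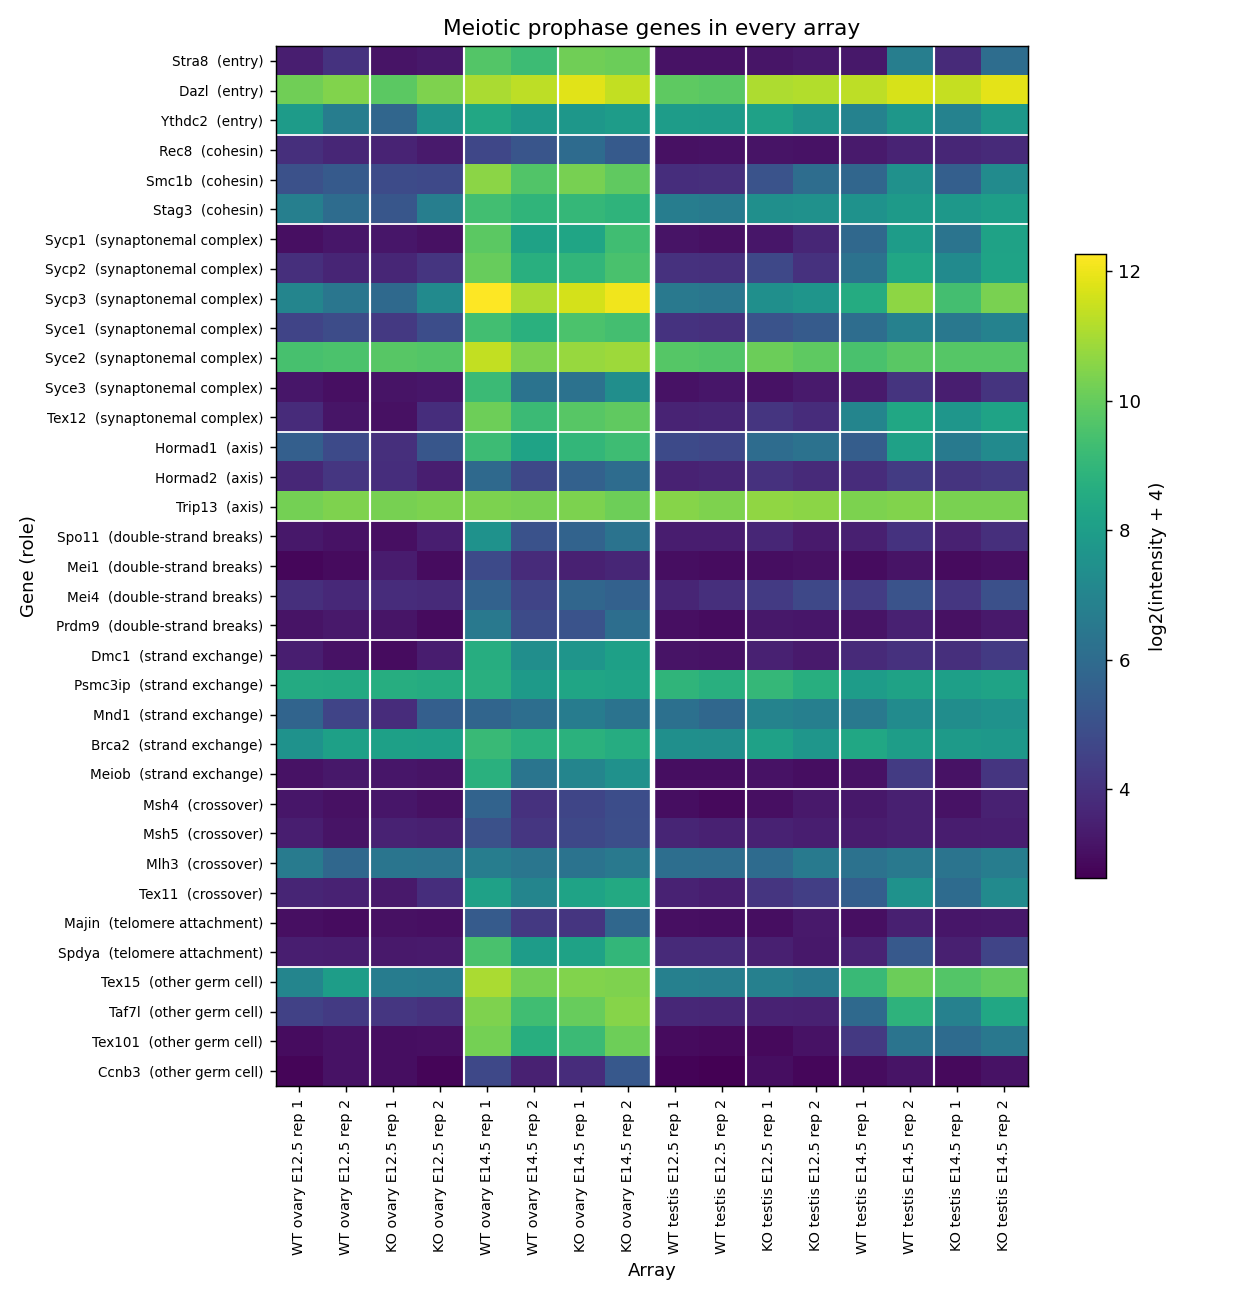
Log2(intensity + 4) of the 35 measured meiotic prophase genes (rows, by role) in each of the 16 arrays (columns, ovary left and testis right, E12.5 before E14.5). The 4 E14.5 ovary columns are the brightest for most genes, with WT replicate 1 above WT replicate 2, while Trip13 has a near constant level.

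Stra8, the entry factor, read 6.95 and 12.7 in WT and 4.82 and 5.58 in KO ovaries at E12.5. At E14.5 it read 828 and 606 in WT and 1149 and 1081 in KO ovaries. No E14.5 ovary array overlapped an E12.5 one, and both KO arrays lay above both WT arrays at E14.5. The log2 difference between stages was 5.72 (SE 0.85, limma adjusted p = 0.00166) in WT and 6.93 (adjusted p = 0.000204) in KO. In testis Stra8 read 4.67 and 4.55 in WT and 5.01 and 5.73 in KO at E12.5, then 5.55 and 104 in WT and 9.88 and 64.2 in KO at E14.5. The higher array of each E14.5 testis pair is the one with 22.7% or 16.4% ovary RNA, whose part in this reading was not tested.

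Dazl, an RNA-binding protein gene that makes germ cells competent for sexual differentiation, was already at 904 to 1393 in E12.5 ovaries. It reached 2107 and 2544 in WT and 3651 and 2655 in KO ovaries at E14.5, with no overlap between the stages. The log2 rise was 0.87 in WT (adjusted p = 0.0419), a call lost without any of its 4 arrays (0.73 to 1.02), and 1.49 in KO (adjusted p = 0.000915). A second Dazl probe set read 609 and 990 in WT and 740 and 772 in KO ovaries at E12.5. At E14.5 it read 1393 and 932 in WT and 2061 and 1907 in KO, so on this probe set the stages overlapped in WT but not in KO. Ythdc2, which encodes an RNA helicase that binds methylated transcripts in meiotic germ cells, did not pass in either genotype (0.78 in WT and 1.16 in KO, adjusted p = 0.483 and 0.161). It read 239 and 100.1 in WT and 51.4 and 193 in KO ovaries at E12.5 and 211 to 333 at E14.5. Its log2 difference in KO was 0.24 without KO ovary E12.5 replicate 1, and 2.07, which passed, without replicate 2.

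The 3 meiotic cohesin genes rose in both ovaries. Smc1b, the meiotic form of a ring subunit, read 28.2 and 37.3 in WT and 24.5 and 23.1 in KO at E12.5, and 1545 and 793 in WT and 1243 and 971 in KO at E14.5. All 4 late arrays lay far above the early ones, and the log2 difference was 4.93 in WT (SE 0.59, adjusted p = 0.000331) and 5.31 in KO (adjusted p = 0.000109). Stag3 rose by 2.73 in WT and 2.997 in KO, the latter between 2.22 without KO ovary E12.5 replicate 1 and 3.77 without replicate 2. Rec8, the cleavable subunit that holds sister chromatids together, read 11.3 and 8.7 in WT and 8.03 and 6.13 in KO at E12.5, and 21.8 and 31.7 in WT and 60.4 and 37.3 in KO at E14.5. Its log2 rise was 1.12 in WT (adjusted p = 0.0117), lost without WT ovary E12.5 replicate 2 (0.98) and E14.5 replicate 2 (0.88), and 2.23 in KO (adjusted p = 4.36e-05).

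All 7 synaptonemal complex genes rose in both ovaries, with median log2 differences of 4.94 in WT and 5.26 in KO. Sycp3, a component of the lateral elements, read 125 and 81.7 in WT and 56.5 and 148 in KO at E12.5, and 4916 and 2126 in WT and 3197 and 4219.5 in KO at E14.5. WT replicate 1 was the highest and WT replicate 2 the lowest of the late ovary arrays. The log2 rise of Sycp3 was 4.94 in WT (SE 0.60, adjusted p = 0.000362) and 5.26 in KO (adjusted p = 0.000128). In testis Sycp3 read 87.0 and 81.3 in WT and 170 and 199 in KO at E12.5, and 376 and 1560 in WT and 659 and 1297 in KO at E14.5. Its partner Sycp2 rose by 5.60 and 5.35, and Sycp1, the transverse filament that spans the complex, rose by 5.89 and 5.66.

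Among the central element genes, Tex12 had the smallest p, with 9.92 and 5.13 in WT and 4.42 and 10.9 in KO at E12.5, then 1118, 580, 868 and 950 at E14.5 (WT, then KO). Its log2 rise was 6.17 in WT (SE 0.45, adjusted p = 8.9e-06) and 6.35 in KO (adjusted p = 4.83e-06). Syce1 rose by 4.30 and 4.90. Syce2 started from 704 to 868 in the early ovaries and rose by 1.36 and 1.10, the KO call being lost without KO ovary E12.5 replicate 1 (1.13), E14.5 replicate 1 (1.13) or E14.5 replicate 2 (1.06). Syce3 read 576 and 75.7 in WT and 72.5 and 166 in KO at E14.5, after 4.18 to 5.27 at E12.5, so WT replicate 1 stood far above the 3 other late arrays. Its log2 rise was 4.63 in WT and 3.65 in KO.

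Without WT ovary E14.5 replicate 1 or replicate 2, in that order, the WT rise became 3.20 or 6.06 for Syce3, 5.07 or 6.71 for Sycp1, 4.94 or 6.26 for Sycp2 and 4.34 or 5.55 for Sycp3. Without KO ovary E12.5 replicate 1 or 2, the KO rise of Sycp3 became 4.60 or 5.93. These calls were kept each time.

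**Figure D2:**
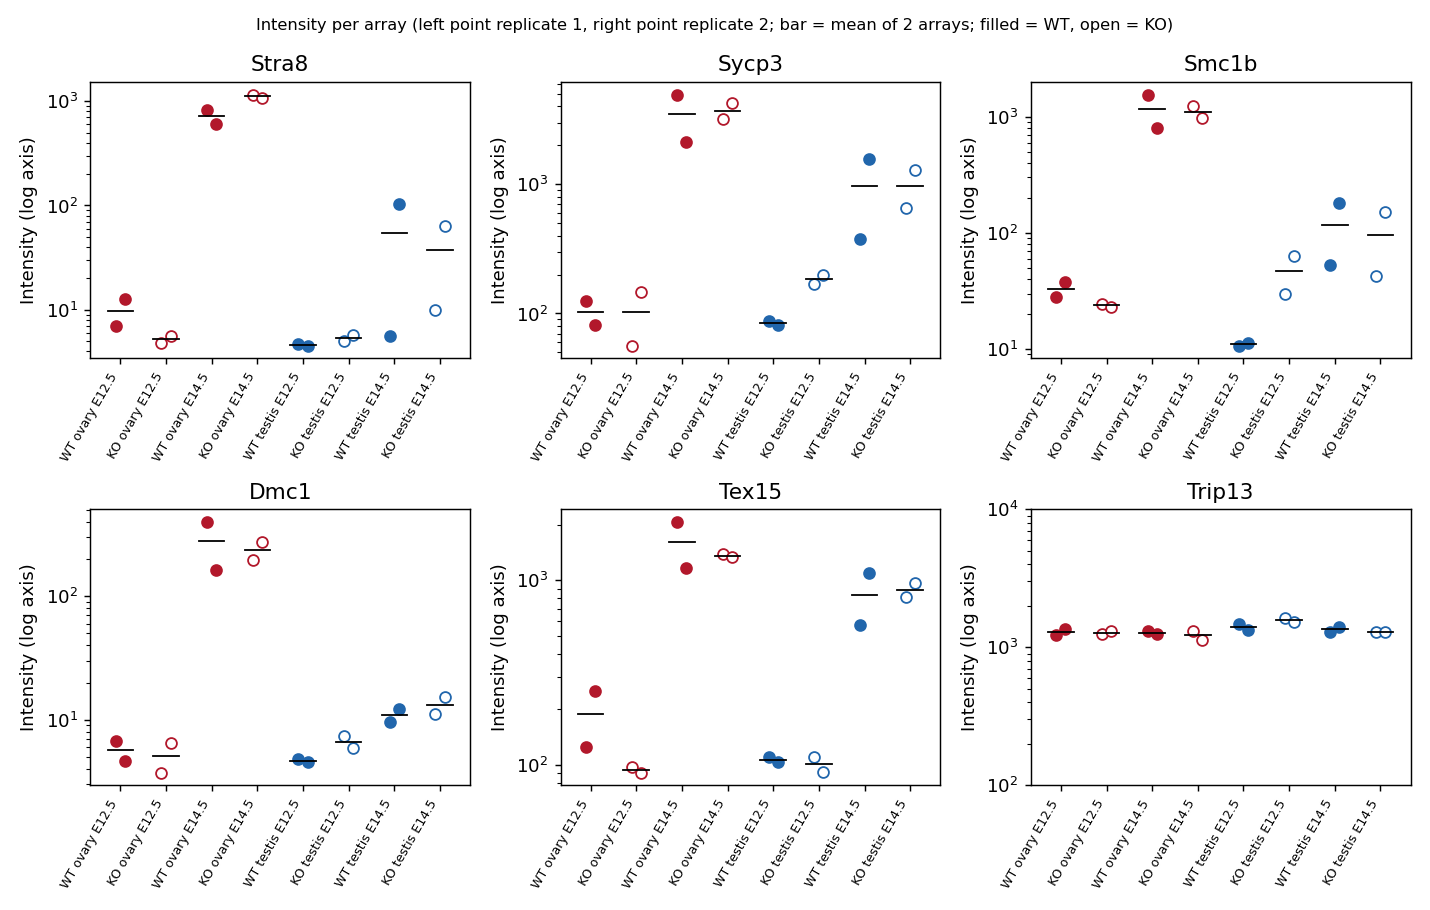
Intensity (log axis) of Stra8, Sycp3, Smc1b, Dmc1, Tex15 and Trip13 in each array of the 8 groups, with points for single arrays (replicate 1 left, replicate 2 right; WT filled, KO open) and a bar for the mean of 2 arrays. All but Trip13 are highest in E14.5 ovaries, and Trip13 stays between 1124 and 1620.1 in every array. Sycp3, Tex15 and Dmc1 are also above their E12.5 level in all E14.5 testes, Dmc1 at 9.62 to 15.2 against 3.74 to 7.39.

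Of the 3 axis genes, Hormad1 and Hormad2, whose proteins coat unsynapsed chromosome axes, rose in both ovaries. Hormad1 read 42.7 and 24.0 in WT and 11.1 and 32.8 in KO at E12.5, then 598, 294, 511 and 616 at E14.5 (WT, then KO). The log2 rise was 3.55 in WT, lost without WT ovary E12.5 replicate 2 (3.18) or E14.5 replicate 1 (3.04), and 4.58 in KO, between 3.94 without KO ovary E12.5 replicate 1 and 5.23 without replicate 2. Hormad2 rose by 1.39 in WT and 2.16 in KO. The WT call was lost without E12.5 replicate 1 (1.17), E12.5 replicate 2 (1.61) or E14.5 replicate 1 (0.79), and was kept at 1.99 without E14.5 replicate 2. Trip13, the ATPase that removes HORMAD proteins from synapsed axes, read 1222 and 1348 in WT and 1238 and 1313 in KO at E12.5, then 1316, 1242, 1316 and 1124 at E14.5. Its arrays overlapped between the stages.

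Genes of double-strand break formation were dim at E12.5. Spo11, the enzyme that makes the breaks, read 5.47 and 4.65 in WT and 4.16 and 6.8 in KO at E12.5, and 184 and 28.9 in WT and 47.4 and 75.2 in KO at E14.5. The spread between the WT arrays was wider than between WT and KO. Its log2 rise was 3.12 in WT (SE 0.55, adjusted p = 0.00556), 1.86 without WT ovary E14.5 replicate 1 and 4.38 without replicate 2. In KO it was 2.77 (adjusted p = 0.00629), lost without KO ovary E12.5 replicate 1 (2.56) or E14.5 replicate 2 (2.45).

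Prdm9, the histone methyltransferase that places the breaks, rose by 2.46 in WT and 2.55 in KO. It read 87.5 and 24.4 in WT and 29.96 and 65.5 in KO at E14.5, and without WT replicate 1 or 2 the WT rise became 1.62 or 3.31. Mei1, needed for break formation, read 2.97 and 3.44 in WT and 6.24 and 3.71 in KO at E12.5, and 23.6 and 10.01 in WT and 7.31 and 8.65 in KO at E14.5. It rose in WT (log2 1.45, adjusted p = 0.00356) and did not pass in KO (0.43, adjusted p = 0.233). Mei4, another break factor, rose in KO (1.90, adjusted p = 0.00483) and did not pass in WT (1.32, adjusted p = 0.0592), where it was 1.84 and passed without E14.5 replicate 2. The differences between the genotypes are tested further on.

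Strand exchange genes split into risers and genes with little change. Dmc1, the meiotic recombinase, read 6.74 and 4.6 in WT and 3.74 and 6.44 in KO at E12.5, and 398 and 162 in WT and 195 and 272 in KO at E14.5. Its log2 rise was 4.75 in WT (SE 0.34, adjusted p = 8.9e-06), 4.11 or 5.39 without WT ovary E14.5 replicate 1 or 2, and 4.71 in KO (adjusted p = 4.83e-06). A second Dmc1 probe set read 6.001 to 7.61 in E12.5 and 45.6 to 93.8 in E14.5 ovaries. Meiob, a single-strand DNA binding protein gene, rose by 4.38 in WT, 3.19 or 5.58 without E14.5 replicate 1 or 2, and by 4.09 in KO. Brca2, which loads recombinases on DNA, rose in WT (1.13, adjusted p = 0.0204), lost without E12.5 replicate 1 (0.83) or E14.5 replicate 1 (0.92), and did not pass in KO (0.61, adjusted p = 0.112).

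Psmc3ip and Mnd1 encode partner proteins that help DMC1. Psmc3ip did not pass in either ovary (-0.19 in WT and -0.35 in KO) and read 229 to 419 in all 8 ovary arrays. Mnd1 read 49.7 and 20.4 in WT and 10.3 and 42.4 in KO at E12.5, then 51.4, 65.7, 99.6 and 75.8 at E14.5. It did not pass in WT (0.78, adjusted p = 0.425). In KO it passed (1.82, adjusted p = 0.0278), but not without E12.5 replicate 1 (0.97), E14.5 replicate 1 (1.63) or E14.5 replicate 2 (2.01), and it was 2.67 without E12.5 replicate 2. The lowest Mnd1 array, labelled KO ovary E12.5 replicate 1, had the 3'/5' ratio of 2.27, whose part in this was not tested.

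Of 4 crossover genes, 3 rose in both ovaries. Tex11, a crossover protein gene on the X chromosome, read 8.44 and 7.71 in WT and 5.9 and 10.7 in KO at E12.5, then 282, 125, 291 and 356 at E14.5. It rose by 3.99 in WT and 4.75 in KO. Msh4 and Msh5, whose proteins form a clamp on recombination intermediates, rose by 1.70 and 1.29 in WT and by 1.64 and 1.31 in KO from levels of 4.36 to 7.79. The Msh4 call was lost in WT without E12.5 replicate 2 (1.63) or E14.5 replicate 1 (0.84), with 2.56 without E14.5 replicate 2, and in KO without E12.5 replicate 1 (1.72), E14.5 replicate 1 (1.77) or E14.5 replicate 2 (1.501). The Msh5 call in WT was lost without E12.5 replicate 2 (1.13). Mlh3, a subunit of the nuclease that resolves crossovers, read 54.3 to 95.8 in E12.5 and 74.2 to 101.4 in E14.5 ovaries, which overlap.

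Spdya and Majin act where telomeres attach to the nuclear envelope. Spdya, an activator of the kinase CDK2, read 6.74 and 6.44 in WT and 5.9 and 6.06 in KO at E12.5, and 719.9 and 245 in WT and 285 and 505 in KO at E14.5. Its log2 rise was 5.33 in WT (SE 0.56, adjusted p = 0.000107), 4.55 or 6.10 without E14.5 replicate 1 or 2, and 5.26 in KO. Majin rose by 1.83 in WT and 1.94 in KO and was dim, at 38.5, 14.6, 13.1 and 54.2 in the E14.5 ovaries. Its WT call was lost without E12.5 replicate 1 (1.85), E12.5 replicate 2 (1.80) or E14.5 replicate 1 (1.23), with 2.42 without E14.5 replicate 2. Its KO call was lost without E12.5 replicate 1 (1.97) or E14.5 replicate 2 (1.06), with 2.82 without E14.5 replicate 1.

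The remaining 4 members are germ cell genes tied to meiosis. Tex101, a germ cell surface glycoprotein gene, read 3.69 to 4.48 in the early ovaries and 1212, 401, 576 and 1126 in the late ones. It rose by 6.44 in WT, 5.65 or 7.23 without E14.5 replicate 1 or 2, and by 6.65 in KO. Taf7l, an X-linked germ cell form of a general transcription factor subunit, rose by 5.47 and 6.19. Tex15, needed for DNA repair and transposon silencing in germ cells, read 125 and 253 in WT and 97.4 and 90.8 in KO at E12.5, then 2077, 1168, 1386 and 1333 at E14.5, a rise of 3.10 in WT and 3.80 in KO. Ccnb3, an X-linked cyclin gene, rose in KO (1.70, adjusted p = 0.0144), lost without E12.5 replicate 1 (1.80) or E14.5 replicate 2 (0.99) and 2.41 without E14.5 replicate 1, and did not pass in WT (1.18, adjusted p = 0.121). In WT it was 1.78 and passed without E14.5 replicate 2.

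**Figure D3:**
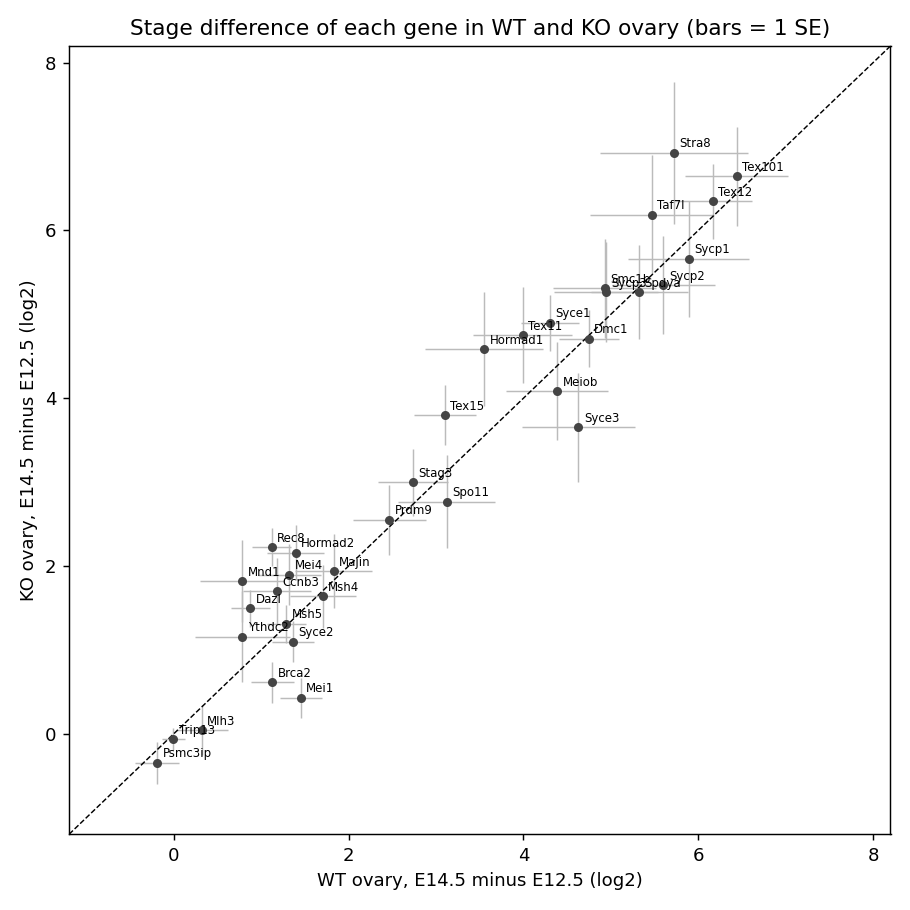
Log2 difference between E14.5 and E12.5 in WT ovary (horizontal) and KO ovary (vertical) for each of the 35 genes, with bars of 1 SE and a dashed line of equal values. The points run along the line from Psmc3ip and Trip13 near 0 to Stra8, Tex101 and Tex12 at the top, and Stra8 and Rec8 lie above it while Syce3 and Mei1 lie below.

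The comparison of KO with WT ovary at E14.5 asked whether loss of Wnt4 changed this programme. Of the 35 genes 0 passed (limma adjusted p under 0.05), against 0.543% of all genes. An unadjusted p under 0.05 was found for 2 of the 35 and for 706 of all 12332 genes, much the same share. The median log2 difference was -0.03, and -0.02 over all genes. Values of 7 genes did not overlap between the genotypes, against 31.2% of all genes. The intervals were wide: for Stra8 the log2 difference was 0.65 with a 95% interval from -1.18 to 2.48, and for Sycp3 0.18 with one from -1.11 to 1.47.

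The smallest p-values belonged to Rec8 and Mei1. Rec8 was higher in KO, at 60.4 and 37.3 against 21.8 and 31.7, without overlap (log2 0.77, 95% interval 0.29 to 1.25, adjusted p = 0.26). Mei1 was lower in KO, at 7.31 and 8.65 against 23.6 and 10.01, also without overlap (-0.72, adjusted p = 0.402). Dazl followed at 0.43 and Mei4 at 0.56, both with an adjusted p of 1.0. None of these passed the test.

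WT replicate 1 was the highest of the 4 arrays for 23 of the 35 genes, and WT replicate 2, with 19.9% testis RNA, the lowest for 24. Without WT replicate 2, 3 genes were lower in KO: Syce3 by 2.35, Spo11 by 1.56 and Mei1 by 1.21 on the log2 scale (adjusted p = 0.0224, 0.0425 and 0.00735), a setting in which WT is a single array assumed to vary like the other groups. With the E14.5 testis arrays of over 10% ovary RNA left out as well, Meiob passed too (-1.49, adjusted p = 0.0249). Without WT replicate 1, or without either KO array, 0 genes passed. The part of testis RNA in these differences was not tested.

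**Figure D4:**
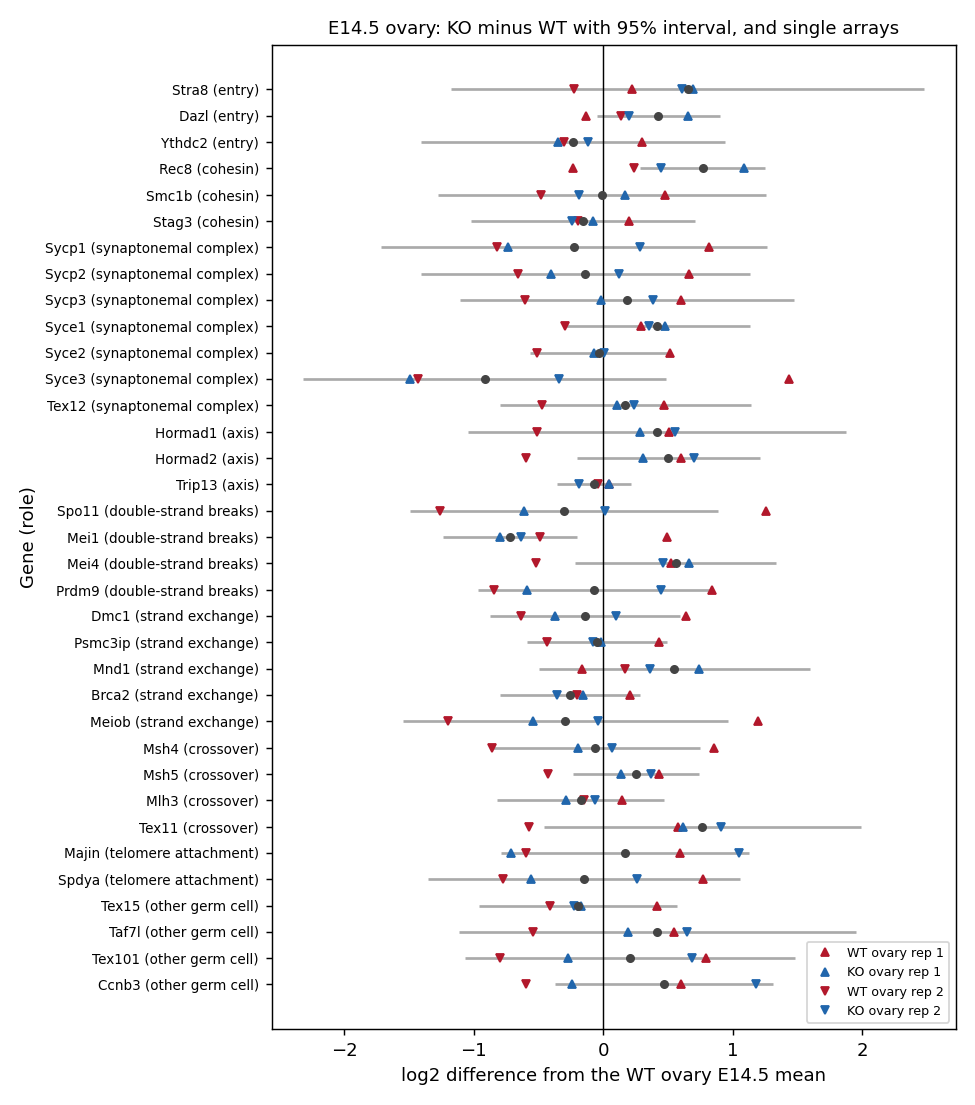
Log2 difference of KO from WT ovary at E14.5 for each of the 35 genes (black points with 95% intervals), with single arrays relative to the WT mean (red WT, blue KO; upward triangles replicate 1, downward triangles replicate 2). For Spo11, Meiob and Prdm9 both KO arrays lie between the WT arrays, and for Stra8 and Rec8 both KO arrays lie above both WT arrays.

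At E12.5, before the rise, 0 of 35 genes passed between KO and WT ovary, against 0.276% of all genes (limma). An unadjusted p under 0.05 was found for 985 of all 12332 genes and for 1 of the 35. That gene was Tex15, at 97.4 and 90.8 in KO against 125 and 253 in WT (-0.89, adjusted p = 0.53). Rec8 (-0.34), Mei1 (0.30) and Ythdc2 (-0.61) followed, with adjusted p of 0.738, 0.783 and 0.81. Without KO ovary E12.5 replicate 1 the differences were -0.94 for Tex15, -0.46 for Rec8, 0.099 for Mei1 and 0.31 for Ythdc2, and 13 of the 35 genes, Ythdc2 among them, changed sign. The test of whether the stage difference depends on genotype (limma interaction) found 0 of 35 genes, and 0% of all genes. At an unadjusted p under 0.05 it found 555 of all 12332 genes and 2 of the 35. These were Rec8, whose rise was larger in KO by 1.11 (95% interval 0.43 to 1.79, adjusted p = 0.80), and Mei1, whose rise was smaller by 1.02 (adjusted p = 0.917). Dazl (0.62) and Hormad2 (0.77) followed, both with an adjusted p of 0.967. Without WT ovary E14.5 replicate 2 the Mei1 difference was -1.51 and passed.

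At E14.5 the ovary was set against the testis, where germ cells do not enter meiosis at this stage. In WT, 16 of 35 genes were higher in ovary and 0 lower, against 1.57% of all genes that were higher, and the median log2 difference was 1.49 (0.02 over all genes). In KO, 19 were higher and 0 lower, against 1.48%, with a median of 1.67 (-0.02 over all genes). The pairs share no array, only the spread estimate of each gene, and 15 genes passed in both. Values did not overlap between the sexes for 30 of 35 genes in WT (45.9% of all genes) and for 31 in KO (54.4%). Mei1, Msh4, Msh5, Prdm9, Majin and Ccnb3 passed the filter only with E14.5 ovary arrays, the group where they are high. Their calls over testis are therefore no independent support for the contrast. Counts with a stricter filter are given in the closing section.

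Dmc1 had the smallest p in both, at 398 and 162 in WT ovary against 9.62 and 12.2 in WT testis, and at 195 and 272 in KO ovary against 11.2 and 15.2 in KO testis. The difference was 4.12 in WT (SE 0.34, adjusted p = 6.08e-05), 3.48 or 4.76 without WT ovary replicate 1 or 2, and 3.78 in KO (adjusted p = 7.19e-05). Syce1 (2.57 in WT and 2.76 in KO) and Rec8 (1.47 and 1.96) were higher in ovary without loss of the call when any array was left out. So was Spdya, by 4.27 in WT, between 3.39 and 5.15 when an array was left out, and by 4.55 in KO. Meiob was higher by 3.87, between 2.67 and 5.06, and by 3.65, and Tex101 by 4.17 in WT, between 3.11 and 5.24. Tex101 in KO (3.43) was lost without KO ovary replicate 2 (2.95).

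Stra8 differed by 4.47 in WT (adjusted p = 0.00971) and 5.18 in KO (adjusted p = 0.00244). The WT call was lost without WT ovary replicate 1 (4.25) or WT testis replicate 1 (2.73), with 6.22 without testis replicate 2, and the KO difference was 4.04 or 6.33 without KO testis replicate 1 or 2. Smc1b differed by 3.45 in WT, lost without WT ovary replicate 1 (2.97) or WT testis replicate 1 (2.60) and 4.30 without testis replicate 2. In KO it differed by 3.70, with 2.84 or 4.56 without KO testis replicate 1 or 2. Syce3 (4.04 in WT and 3.06 in KO), Prdm9 (2.35 and 2.43), Spo11 (2.54 and 2.28), Tex12 (1.97 and 1.87), Msh4 (1.49 and 1.47), Msh5 (1.16 and 1.43) and Syce2 (1.22 and 1.11) passed in both as well. Mei1 (1.25) passed in WT, and Hormad2 (1.67), Ccnb3 (1.59), Majin (1.75) and Taf7l (2.65) in KO.

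Most of these further calls rested on single arrays. Without WT ovary replicate 1 the WT calls of Prdm9 (1.502), Spo11 (1.29), Tex12 (1.498), Msh4 (0.63), Msh5 (0.73), Syce2 (0.70) and Mei1 (0.76) were lost. They were also lost without WT testis replicate 1, at 2.17, 2.26, 1.28, 1.38, 1.10, 1.05 and 1.15 in the same order, as was Syce3 (3.65). Spo11 (2.83), Msh4 (1.60) and Msh5 (1.22) were lost without WT testis replicate 2. The other way, without WT ovary replicate 2, Syce3 reached 5.47, Spo11 3.80, Prdm9 3.19 and Msh4 2.35, and Syce3 was 2.61 without ovary replicate 1, while Tex12 was 2.66 without testis replicate 2.

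In KO the calls of Syce2 (1.07 to 1.15), Tex12 (1.61 to 2.12), Spo11 (1.97 to 2.59), Msh4 (1.27 to 1.68) and Taf7l (1.92 to 3.39) were lost without any of the 4 arrays. Prdm9 (1.92) and Hormad2 (1.47) were lost without KO ovary replicate 2, and Hormad2 also without testis replicate 1 (1.59). Syce3 was lost without KO ovary replicate 2 (2.48), testis replicate 1 (2.74) or testis replicate 2 (3.38). So were Ccnb3 (0.88, 1.48 and 1.70) and Majin (0.86, 1.71 and 1.78), which were 2.30 and 2.63 without KO ovary replicate 1.

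In WT 6 of the 16 calls, and in KO 8 of the 19, were kept on leaving out any single array. The WT count was 7 without WT ovary replicate 1, 22 without WT ovary replicate 2, 6 without WT testis replicate 1 and 17 without WT testis replicate 2. The KO count was 14 without KO ovary replicate 1, 8 without KO ovary replicate 2, 10 without KO testis replicate 1 and 11 without KO testis replicate 2. Closest to passing in WT were Hormad2 (1.26, adjusted p = 0.0507), Stag3 (1.42, adjusted p = 0.0703), Sycp2 (2.08, adjusted p = 0.0714) and Majin (1.56, adjusted p = 0.0733). In KO they were Brca2 (0.86, adjusted p = 0.0667), Sycp3 (1.99, adjusted p = 0.0792), Hormad1 (2.24, adjusted p = 0.0816) and Mei4 (1.13, adjusted p = 0.098). Whether the sex difference depends on genotype was tested by interaction, and 0 of 35 genes passed (0% of all genes), with 0 of the 35 at an unadjusted p under 0.05. The smallest p-values there belonged to Mei1 (-0.64), Rec8 (0.49), Mei4 (0.71) and Syce3 (-0.98), each with an adjusted p of 1.0 (limma).

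Testis levels were not the same for all genes when set against the WT ovary mean of each gene. In WT testis replicate 1, with 0.0177% ovary RNA, the median gene stood at 18.2% of WT ovary. It stood at 39.3% in WT testis replicate 2, at 21.1% in KO testis replicate 1 and at 34.7% in KO testis replicate 2. No background was taken off, so a gene that is dim in ovary has a high percentage even at background. The 18.2% belongs to Msh4, at 5.46, and the 21.1% to Mei1, at 3.55. Both readings lay within the range of the gene's own E12.5 arrays and under every array median (lowest 9.32), so these medians are not measured testis levels. The replicate with more ovary RNA was the higher one for 34 of 35 genes in WT and 33 in KO, and the part of that RNA in these levels was not tested. Stra8 stood at 0.775% and 1.38% in the replicate 1 arrays of WT and KO, the lowest of the 35 genes in both arrays. Sycp3 stood at 10.7% and 18.7% in the same arrays, and Tex15 at 35.4% and 50%. Mnd1, Dazl and Trip13 were above the WT ovary mean in all 4 testis arrays.

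**Figure D5:**
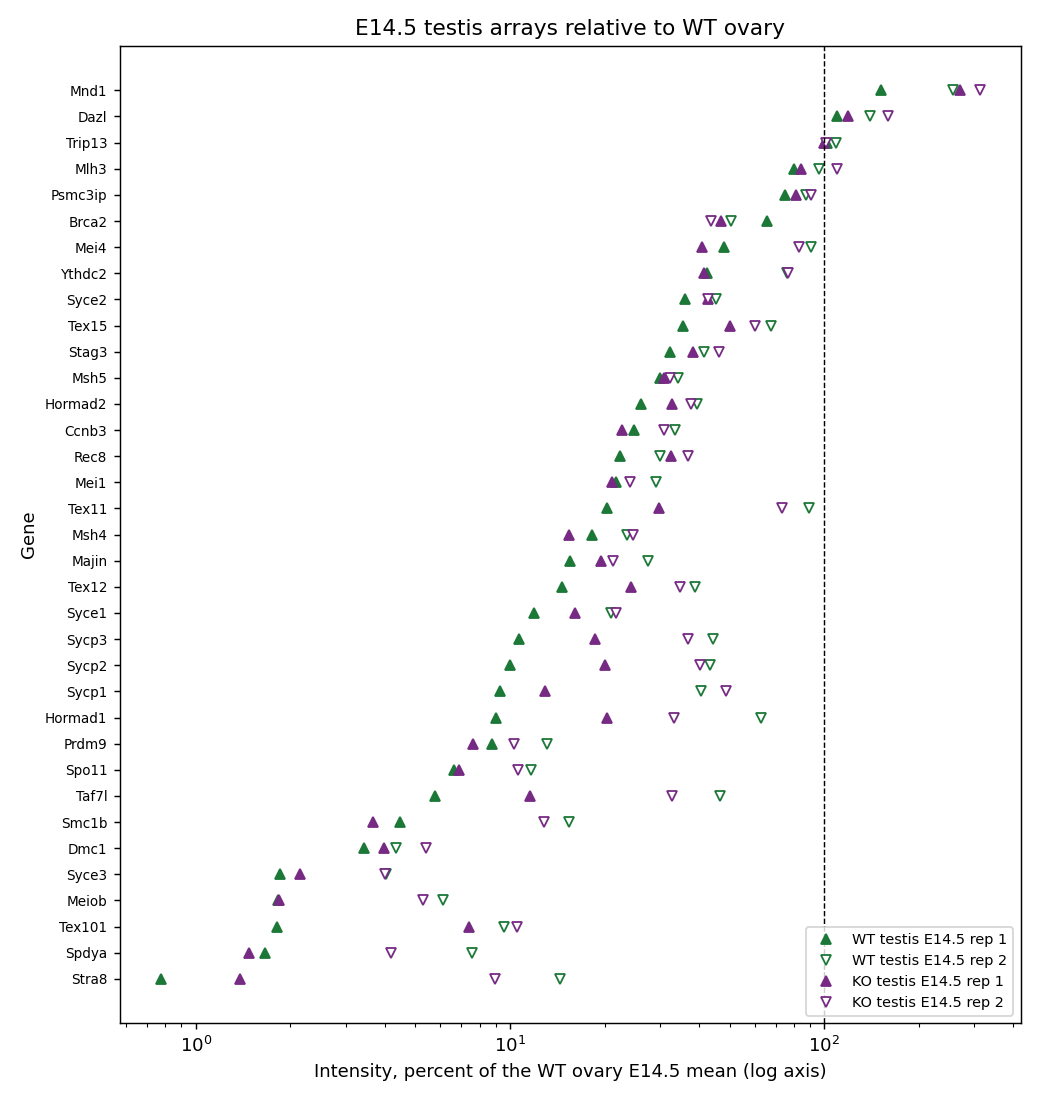
Intensity of each of the 35 genes in the 4 E14.5 testis arrays as a percentage of that gene's WT ovary E14.5 mean (log axis; dashed line at 100%; green WT, purple KO; filled replicate 1, open replicate 2). Stra8, Spdya, Tex101, Meiob, Syce3 and Dmc1 lie at the low end, Tex15, Stag3 and Syce2 between 32.2% and 67.8%, and the open points lie right of the filled ones for most genes.

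Part of the set also rose with stage in the testis. In WT testis 11 genes were higher at E14.5 and 0 lower, against 6.67% of all genes that were higher, with a median log2 difference of 0.77 (0.07 over all genes). In KO testis 9 were higher and 0 lower, against 2.68%, with a median of 0.55 (-0.02 over all genes). The pairs share no array, only the spread estimate of each gene. The 9 genes of KO were all among the 11 of WT: Tex12, Tex15, Syce1, Sycp1, Sycp2, Sycp3, Tex11, Taf7l and Tex101. Sycp1 and Tex101 had 0 E12.5 arrays above the array median and passed the filter only with E14.5 arrays, where they are high. Their calls are therefore no independent support for a rise. Dazl and Smc1b passed in WT alone, and a difference between the genotypes in the testis stage effect was not tested.

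Tex15 read 110 and 103 in WT and 111 and 91.6 in KO testes at E12.5, and 574 and 1100.2 in WT and 812 and 973 in KO at E14.5. The replicate 1 arrays, with no more than 0.0177% ovary RNA at E14.5, thus also lay above every early array. The rise was 2.85 in WT (SE 0.35, adjusted p = 0.000341) and 3.09 in KO (adjusted p = 0.000328). Tex12 read 8.06 and 8.35 in WT and 13.5 and 10.4 in KO at E12.5, and 124 and 329.7 in WT and 206 and 295 in KO at E14.5. It rose by 4.08 in WT, 4.77 or 3.39 without E14.5 replicate 1 or 2, and by 3.98 in KO. These rises kept their call on leaving out any single array.

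Dazl (1.64), Syce1 (2.47) and Sycp2 (3.31, or 4.34 and 2.28 without E14.5 replicate 1 and 2) kept theirs in WT testis too. The others depended on single arrays. Sycp3 rose by 3.13 in WT, lost without E12.5 replicate 2 (3.08) or E14.5 replicate 2 (2.11) and 4.15 without E14.5 replicate 1. In KO it rose by 2.31 (adjusted p = 0.0496), lost without any of the 4 arrays (1.82 to 2.79). Without WT testis E14.5 replicate 2, the array of 22.7% ovary RNA, Sycp1 (3.81, then 2.78), Tex11 (3.02, then 2.01), Smc1b (2.76, then 1.91) and Tex101 (2.38, then 1.31) lost their call, and Taf7l (3.69, then 2.22) kept it but lost it without E12.5 replicate 2 (3.66). Without E12.5 replicate 1 Smc1b (2.73) and Tex101 (2.40), and without E12.5 replicate 2 Tex11 (2.96), Smc1b (2.79) and Tex101 (2.35), were lost as well. Without WT testis E14.5 replicate 1 the rises were larger, at 4.83 for Sycp1, 4.03 for Tex11, 5.15 for Taf7l, 3.61 for Smc1b and 3.44 for Tex101, and Stra8 (3.64) and Hormad1 (3.41) passed, which made 13 genes.

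Without KO testis E14.5 replicate 2, the array of 16.4% ovary RNA, the KO calls of Sycp1 (3.84, then 2.91), Sycp2 (3.36, then 2.87), Syce1 (1.46, then 1.25), Tex11 (2.37, then 1.75), Tex101 (3.25, then 3.01) and Taf7l (4.08, then 3.34) were lost. Without KO testis E12.5 replicate 1 Taf7l (4.09), Sycp1 (3.62), Tex101 (3.15), Syce1 (1.30) and Tex11 (2.22) were lost, without E12.5 replicate 2 Syce1 (1.62) and Tex11 (2.52), and without E14.5 replicate 1 Syce1 (1.67). Without E14.5 replicate 1 Taf7l was 4.81, Sycp1 4.77 and Tex11 2.996. Counts were 6 in WT without WT testis E14.5 replicate 2 or E12.5 replicate 2, and in KO 2 without E14.5 replicate 2, 3 without E12.5 replicate 1 and 6 without E12.5 replicate 2. With the closely similar WT testis arrays of E12.5 averaged, the WT count was 6. Closest to passing in WT were Brca2 (0.77, adjusted p = 0.0667), Hormad1 (2.07, adjusted p = 0.0689), Psmc3ip (-0.76, adjusted p = 0.0722) and Stag3 (1.07, adjusted p = 0.106). In KO they were Psmc3ip (-0.72), Rec8 (0.61), Dazl (0.53) and Trip13 (-0.29), with adjusted p of 0.152, 0.178, 0.259 and 0.30.

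The sexes were also compared before the rise. At E12.5, 0 of 35 genes passed between WT ovary and WT testis, against 0.608% of all genes (limma). Of the 35, 3 had an unadjusted p under 0.05, a smaller share than the 2054 of all 12332 genes. Rec8 (0.72, adjusted p = 0.173), Syce1 (0.74), Smc1b (1.28) and Dazl (0.46) had the smallest p-values, with adjusted p of 0.29, 0.297 and 0.314 in the order Syce1, Smc1b, Dazl. Without WT ovary E12.5 replicate 1, Tex15 passed (1.22). In KO, 0 of 35 passed, against 1.07% of all genes. An unadjusted p under 0.05 belonged to 6 of the 35 and to 2358 of all 12332 genes, so the share of the 35 was not the higher one. Here the testis was the higher side: Dazl read 904 and 1345 in KO ovary against 2144 and 2287 in KO testis (-1.003, adjusted p = 0.0501), and Mnd1 10.3 and 42.4 against 120 and 108 (-2.19, adjusted p = 0.0501). On the second Dazl probe set the sexes lay closer, at 740 and 772 in KO ovary against 828 and 1094 in KO testis.

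Stag3 (-1.48, adjusted p = 0.0927) and Hormad1 (-1.60, adjusted p = 0.227) followed. Without KO ovary E12.5 replicate 2, 4 genes passed, all lower in ovary: Stag3 (-2.26), Mnd1 (-3.04), Dazl (-1.29) and Ythdc2 (-2.11). Without replicate 1, 0 passed, with Stag3 at -0.71, Mnd1 at -1.34, Dazl at -0.72, Ythdc2 at -0.28 and Hormad1 at -0.96. The array left alone in the first of these settings, labelled KO ovary E12.5 replicate 1, is the one with the 3'/5' ratio of 2.27.

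In KO testis at E12.5, 0 of 35 genes passed against WT testis (limma, 0.0243% of all genes). With an unadjusted p under 0.05 there were 3 of the 35, and 1362 of all 12332 genes, which is the larger share. The log2 difference was above 0 for 30 of 35 genes, with a median of 0.23 (0.10 over all genes), and 23 genes did not overlap, against 57.1% of all genes. Dazl read 2144 and 2287 against 947 and 893 (1.27, adjusted p = 0.0645). Syce1 (1.24, adjusted p = 0.183), Smc1b (1.67, adjusted p = 0.311) and Hormad1 (1.42, adjusted p = 0.466) followed. The summed intensity of 10 germ cell marker genes, none of them among the 35, was 3893 and 4321 in these KO arrays and 2275 and 2180 in WT, and its part in the difference was not tested. At E14.5, 0 of 35 passed between KO and WT testis (0.00811% of all genes), with 0 at an unadjusted p under 0.05. Tex101 (0.95), Brca2 (-0.34), Rec8 (0.28) and Mnd1 (0.55) had the smallest p-values, each with an adjusted p of 1.0.

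Whether the rise with stage was larger in ovary than in testis was tested by interaction in each genotype. In WT, Dmc1 and Spdya passed, 2 of 35 against 0.0487% of all genes in that direction. An unadjusted p under 0.05 was found for 20 of the 35 and for 2231 of all 12332 genes. In KO, 7 passed, against 0.349% of all genes in that direction, namely Dmc1, Syce1, Spdya, Smc1b, Rec8, Stag3 and Prdm9. Here 26 of the 35, and 2228 of all 12332 genes, had an unadjusted p under 0.05. Of the 7 that passed in KO, Prdm9 passed the filter only with E14.5 ovary arrays, where it is high. Dmc1 and Spdya had 0 E12.5 arrays above the array median and Rec8 had 1. These genes too passed the filter only with arrays of the stage where they are high. The WT calls, and the KO calls of Dmc1, Spdya, Rec8 and Prdm9, are therefore no independent support for the contrast. The rise of Dmc1 was larger in ovary by 3.97 in WT (SE 0.48, adjusted p = 0.00557) and 4.03 in KO (adjusted p = 0.00205). Its WT call was lost without WT testis E12.5 replicate 1 (3.95), and without WT ovary E14.5 replicate 1 or 2 the difference was 3.33 or 4.61. Dmc1 and Syce1 (3.44) kept their KO call on leaving out any single array.

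The other interaction calls did not. Spdya (4.64 in WT) was lost without 5 of its 8 arrays, at 3.77 to 4.66, namely WT ovary E12.5 replicate 2, WT ovary E14.5 replicate 1, both WT testis E12.5 arrays and WT testis E14.5 replicate 1. In KO, Spdya (4.58) was lost without 4 arrays, at 4.02 to 4.57, and Smc1b (4.48) without 5, at 3.62 to 4.66. Rec8 (1.61) was lost without 6, at 1.29 to 1.74, Stag3 (2.55) without all but KO ovary E12.5 replicate 2 (then 3.32), at 1.77 to 2.68, and Prdm9 (2.63) without any of the 8, at 2.12 to 3.15. Without KO testis E14.5 replicate 2 Smc1b was 5.35.

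In KO, Stra8 (5.21, adjusted p = 0.053), Msh5 (1.39), Meiob (3.51) and Hormad2 (1.89) came closest to passing, with adjusted p of 0.052 for Msh5, 0.0579 for Meiob and 0.0653 for Hormad2. In WT they were Tex101 (4.07, adjusted p = 0.068), Msh5 (1.43), Meiob (3.68) and Syce3 (4.07), with adjusted p of 0.0815 for Msh5 and 0.0821 for the others. WT counts lay between 0 and 13 when an array was left out, the highest without WT ovary E14.5 replicate 2, and KO counts between 2 and 11. Without the 3 E14.5 arrays of over 10% opposite-sex RNA, 20 genes passed in WT and 21 in KO. In that setting WT ovary, WT testis and KO testis at E14.5 are single arrays.

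A second list of 36 meiosis genes outside the set was read the same way. Of these 25 were measured and 23 tested. In WT ovary 9 rose with stage (2.47% of all genes rose) and 0 fell, and in KO ovary 10 rose (5.34% of all genes), among them Rad51c (2.11), and 1 fell (Xrcc3, a recombination repair gene, by 1.36 on the log2 scale). Six6os1, a central element gene of the synaptonemal complex, rose by 5.35 in WT and 5.02 in KO ovary. Terb1 and Terb2, which join MAJIN at the telomere, rose by 5.84 and 2.53 in WT and 5.49 and 2.81 in KO. Hsf2bp and Brme1, partners of BRCA2, rose by 3.18 and 1.17 in WT and 3.33 and 1.53 in KO, and Ccnb1ip1, a crossover ligase gene, by 3.35 and 3.73. Atr, a checkpoint kinase gene, rose by 1.59 and 1.76. Meioc, whose protein works with YTHDC2, read 9.94 and 8.6 in WT and 8.00 and 14.1 in KO ovaries at E12.5, then 1067, 339, 432 and 889 at E14.5. It rose by 5.52 and 5.40, and Rec114, a break factor gene, rose by 1.47 and 2.02.

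In WT testis 2 of the 23 rose, Six6os1 (3.75) and Hsf2bp (2.03), a share near the 6.67% of all genes. In KO testis the list gave 2 rises (2.68% of all genes rose) and 1 fall, namely Six6os1 (3.41), Hsf2bp (1.43) and Exo1 (-0.72). Ovary was above testis at E14.5 for Terb1, Terb2 and Ccnb1ip1 in both genotypes, by 4.75, 2.12 and 2.02 in WT and 4.99, 2.76 and 1.99 in KO, and for Brme1 (1.28) and Hsf2bp (1.504) in KO, against 1.57% of all genes in WT and 1.48% in KO. Between the genotypes 0 of 23 passed in each of the 4 comparisons (limma), against 0.00811% to 0.543% of all genes. Median differences of these 23 genes with stage were 0.35 in WT and 0.40 in KO ovary, against 2.73 and 2.77 for the 35 members.

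Of 25 regulators of meiotic entry, 23 were measured and 22 tested. Between KO and WT 0 passed in either sex or stage (limma), against 0.00811% to 0.543% of all genes. Cyp26b1, the retinoic acid degrading enzyme gene, read 138 and 192 in WT testis and 33.0 and 56.6 in WT ovary at E12.5. At E14.5 it read 227 and 74.9 in WT testis, 175 and 115 in KO testis, 7.34 and 37.6 in WT ovary and 6.42 and 6.63 in KO ovary. The ovary was lower at E14.5 by 2.64 in WT (adjusted p = 0.0209) and by 3.79 in KO (adjusted p = 0.00161) on the log2 scale. WT ovary replicate 2, the higher ovary array, is the one with 19.9% testis RNA. Between the sexes at E14.5, 1 gene was higher and 4 lower in WT ovary, and 1 higher and 3 lower in KO ovary. Of all 12332 genes, 472 in WT and 654 in KO passed there in either direction. Aldh1a1, a retinaldehyde dehydrogenase gene, was lower in ovary at both stages in both genotypes, by 1.34 in WT and 2.64 in KO at E14.5. Crabp1, a retinoic acid binding protein gene, fell with stage in all 4 tissues, by 2.02 in WT ovary, 2.44 in KO ovary, 3.04 in WT testis and 2.22 in KO testis.

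Over the means of the 8 groups, most members followed the average profile of the other members. The correlation was at its highest for Syce1 (r = 0.99), Smc1b (0.99) and Hormad1 (0.98), and at its lowest for Mnd1 (0.31), Trip13 (-0.46) and Psmc3ip (-0.58). Among all other tested genes, the 10 with the most similar profile were Atf7ip2 (r = 0.995), Fmr1nb, Rhox13, Fgd6, Gm715, H2-K1, Fut8, Fmr1, Dnajb11 and Trappc8 (r = 0.981), in falling order. Group means share the same arrays for all genes, so these values describe likeness over 8 points and no more. Atf7ip2 read 428 ± 271 in WT ovary and 361 ± 17.2 in KO ovary at E14.5, against 113 ± 69.5 in WT testis and 36.0 ± 3.07 in WT ovary at E12.5 (SD, n = 2).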

How the data were processed

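RNA from 16 gonad samples was read on Affymetrix arrays. Per the submitters' processing notes the arrays were processed with MAS5; no source used here gives its version or scaling target; per the labels' protocols 8 ug of RNA was labelled per sample. The deposited values are linear intensities, used as deposited: no scanner files were used here. Probe sets were named from a platform annotation of 2016, 34945 with 1 gene symbol, 932 with several and 9160 with none. Values were taken as log2(intensity + 4). A gene had to exceed the median of its array in 2 or more arrays, which left 12332 genes, fitted together over the 8 groups with limma 3.58.1 (intensity trend, 8 residual degrees of freedom) in R 4.3.3, with Benjamini-Hochberg adjustment over all genes and a threshold of 0.05. Promoter searches and figures used Python 3.11.15, pandas 2.3.3 and matplotlib 3.10.9, and the fit was tested on simulated data.

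The members and lists were chosen with earlier results of these data known. In each comparison up to 12 members past the threshold and up to 4 that missed it were to be named by smallest p, and Stra8 and Sycp3 always; further members were named to account for all 35. Of the other meiosis genes up to 6 per comparison were to be named, which the ovary stage comparisons exceed. Genes like the set are the 10 with the highest correlation over 8 group means. Alternatives covered the pseudocount (1 and 16), filter, normalization, variance model, array weights, covariates, threshold, replicate block and each array left out. The labels number the replicates without saying that a number links samples, so they were not paired.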

Additional observations from a re-analysis of the deposited data

Results flagged for a closer look

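The rise from E12.5 to E14.5 differed between ovary and testis, by limma's interaction test with adjusted p under 0.05, for 9 results. In WT it was larger in ovary for Dmc1 by 3.97 and for Spdya by 4.64 on the log2 scale. In KO it was larger in ovary for Dmc1 by 4.03, Syce1 by 3.44, Spdya by 4.58, Smc1b by 4.48, Rec8 by 1.61, Stag3 by 2.55 and Prdm9 by 2.63. Of these, Dmc1 and Syce1 in KO kept their call whichever array was left out, and the other 7 lost it without at least 1 array, with the values given above. Dmc1, Spdya, Rec8 and Prdm9 passed the filter only with arrays of E14.5, the stage where they are high, so their calls are no independent support. With 2 arrays in each group, no test for a single outlying array was possible.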

How the results depend on the processing

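None of the 121 gene differences that passed reversed its direction under the alternatives tried. Differences that did not pass could change sign with 1 array left out, as 15 of 35 did in KO against WT ovary E14.5 without WT replicate 1. Counts of members called, with any 1 array left out, were 0 to 0 in KO against WT at ovary E12.5, testis E12.5 and testis E14.5 and in genotype by sex, 0 to 3 in KO against WT ovary E14.5 and 0 to 1 in genotype by stage. They were 0 to 1 and 6 to 22 in WT ovary against testis at E12.5 and E14.5, and 0 to 4 and 8 to 14 in KO. With stage they were 21 to 28 in WT ovary, 23 to 30 in KO ovary, 6 to 13 in WT testis and 2 to 7 in KO testis, and for stage by sex 0 to 13 in WT and 2 to 11 in KO. KO ovary against testis at E12.5 gave 1 with a pseudocount of 1, 2 with 16, 2 with quantile normalization, 3 with opposite-sex share and 1 with the 3'/5' ratio as covariate, and 3 at a threshold of 0.10. The stricter filter (8 arrays), which tests fewer members, gave 6 and 7 for ovary against testis E14.5 in WT and KO. It gave 17 and 18 for ovary stage, and 0 and 2 for stage by sex. Arrays of E14.5 alone can meet this filter, as they did for Sycp1 and Tex101, and Stra8 met it with 7 of E14.5 and 1 of E12.5. The stage counts under it are therefore not free of members that pass only where they are high. Without the intensity trend, stage by sex in WT gave 1. Array weights gave 2 for KO against WT testis E12.5, 19 for WT testis stage and 11 for stage by sex in KO. Fits on the compared arrays alone gave 0 for WT ovary against testis E14.5, 17 for WT ovary stage, 18 for WT testis stage, and 0 and 18 for stage by sex in WT and KO. Averaging the almost identical arrays gave 6 for WT testis stage and 0 and 4 for stage by sex in WT and KO. The opposite-sex covariate gave 1 for KO against WT testis E12.5 and 1 for stage by sex in WT. The germ cell covariate gave 2 and 8 for ovary against testis E14.5 in WT and KO, and 0 and 11 for stage by sex. A threshold of 0.10 gave 1 for KO against WT testis E12.5, and 6 and 15 for stage by sex. Leaving out the 3 mixed E14.5 arrays, chosen after seeing the data, gave 4 for KO against WT ovary E14.5, 25 for WT ovary against testis E14.5, and 20 and 21 for stage by sex. Where no reason is named, the cause was not tested. With the replicate number as a block, 116 of 121 gene calls were kept, and KO against WT testis E12.5 and KO ovary against testis E12.5 each gave 1 call; same-numbered arrays deviated with correlations from -0.66 to 0.58, so they share only a number. The crossed pairing, also chosen after seeing the data, gave 0 for KO against WT ovary at both stages, 15 for WT ovary against testis E14.5, and 28 and 29 for ovary stage in WT and KO. With 2 arrays a group, the number of arrays limits the precision.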

Other observations

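Several genes of undifferentiated germ cells were read in the same E14.5 ovaries. Pou5f1, a pluripotency factor gene, read 7.4 and 165 in WT and 312 and 75.5 in KO, and Dppa3 read 15.0 and 1197 in WT and 1616 and 1240.1 in KO. Sall4 read 5.1 and 88.4 in WT and 84.1 and 15.97 in KO. WT replicate 1, the highest array for 23 of the 35 meiotic genes, was the lowest of the 4 for each of these. Ddx4, a germ cell helicase gene, read 884 and 921 in WT and 1313 and 1168 in KO. The marker sum of Sertoli cells was highest in WT replicate 2, the array with 19.9% testis RNA, at 2697 against 403 to 552 in the others. These genes were picked after their values were seen.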
